A study of Homo sapiens with 24 samples.

Results

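A set of 10 transcription factors associated with the mesenchymal and lung identity of fibroblasts were followed through RAS-induced senescence (RIS) of IMR90 cells, a line of human diploid lung fibroblasts: FOXF1, FOXF2, TBX2, TBX3, TBX4, TBX5, TWIST1, TWIST2, PRRX1 and MEOX2. The members were chosen by symbol with earlier results of these data known. Each of the 10 was found among the 25702 Entrez gene identifiers counted in every library. All cells carried a retroviral ER:HRAS(G12V), an oncogenic HRAS fused to the oestrogen receptor that 4-hydroxytamoxifen (4OHT) switches on, together with either the empty MSCV Vector or MSCV miR30 shHMGA1, a hairpin against the chromatin protein HMGA1, and were used at passages 23 to 28. Poly(A) RNA was sequenced from 6 biological replicates of each of 4 conditions: vector cells without 4OHT (growing), hairpin cells without 4OHT (shHMGA1), vector cells after 6 days of 4OHT (RIS) and hairpin cells after 6 days of 4OHT (RIS+shHMGA1). There was no 4OHT-treated group without ER:HRAS(G12V), so the drug and the oncogene cannot be told apart, and the cells are a single fetal line with a transgene driven from a retrovirus.

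Fibroblasts of different organs keep a record of where they arose in the transcription factors they go on expressing. FOXF1 and FOXF2 are forkhead factors of the mesenchyme around the developing gut and lung that respond to Hedgehog signals from the epithelium. TBX2, TBX3, TBX4 and TBX5 are T-box factors encoded as the linked pairs TBX2 with TBX4 and TBX3 with TBX5, and all are made in the mesenchyme of the lung bud. TBX2 and TBX3 are mainly repressors, known for holding down cell cycle inhibitors and thereby delaying senescence. TWIST1 and TWIST2 are basic helix-loop-helix (bHLH) factors of mesenchyme that can also oppose oncogene-induced senescence, while PRRX1 and MEOX2 are homeobox factors.

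A pair of libraries lay apart from their groups. On the first principal component of all tested genes, which carried 73.9% of the variance in log2 CPM (read counts scaled to a common library size), growing replicate 4 scored 77.3 while the other 5 growing libraries scored -84.3 to -57.2, and RIS replicate 2 scored -77.1 while the other 5 RIS libraries scored 16.8 to 62.1. The summed CPM of 5 proliferation genes was 94.5 in growing replicate 4 and 418 to 714 in the other growing libraries, and it was 553 in RIS replicate 2 and 59.1 to 92.2 in the other RIS libraries. Each thus had the profile of the opposite 4OHT state, and the cause was not tested. The fold changes of the factors between growing and RIS are therefore given with and without them. The pair was picked from these same expression data, so p-values and separations of groups without it depend on that choice. They are not independent evidence of a change. The comparison of RIS+shHMGA1 with shHMGA1 held neither. HMGA1 itself matched the hairpin labels in every library, at 639 to 861 CPM in growing, 641 to 786 in RIS, 54.4 to 143 in shHMGA1 and 60.0 to 262 in RIS+shHMGA1. Replicates 5 and 6 were the lowest of both hairpin groups, at 58.1 and 54.4 CPM in shHMGA1 and 60.0 and 75.1 in RIS+shHMGA1. The others had 98.7 to 143 and 197 to 262 CPM. Component scores of replicates 5 and 6 were 52.5 and 58.2 in RIS+shHMGA1, against 78.5 to 84.1 in the others. In RIS they were 16.8 and 22.2, against 56.0 to 62.1 without replicate 2. No such split was seen in shHMGA1, and the cause was not tested.

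All 10 fibroblast markers examined (collagens, PDGF receptors, VIM and others) were detected, at a summed 26900 to 51500 CPM in the 5 similar growing libraries, 16300 to 23600 in shHMGA1, 6930 to 12900 in the 5 similar RIS libraries and 5410 to 7000 in RIS+shHMGA1. Single markers differed in direction between vector and hairpin cells. From the 5 similar growing libraries to shHMGA1, mean COL1A1 went from 16200 to 7530 CPM, and COL1A2, COL3A1, FN1 and PDGFRB were also lower. DCN went from 181 to 324 CPM, LUM from 110 to 245 and PDGFRA from 141 to 173. From the 5 similar RIS libraries to RIS+shHMGA1, COL1A1 went from 1850 to 586 CPM, DCN from 68.7 to 190 and LUM from 37.9 to 85.1. Only 1 of 8 epithelial markers passed the low-count filter, with a summed level of at most 8.18 CPM in any library, and NKX2-1, a defining factor of lung epithelium, had no read in any library. Of the 6 haematopoietic markers 1 passed, with a summed level of at most 3.43 CPM. The 6 endothelial markers, of which 2 passed, summed to 70.4 to 124 CPM in shHMGA1 and 19.1 to 27.3 in RIS+shHMGA1 with the defining marker CDH5 at 3 reads or fewer in each of these libraries. The 5 smooth muscle and pericyte markers, of which 4 passed, summed to 21.6 to 47.6 CPM and 16.5 to 26.5 in the same groups. The fibroblast and endothelial sums of these groups did not overlap and the mural sums did, all with a lower median after 4OHT. Nearly all of the endothelial sum was TEK, at a mean of 97.0 CPM in shHMGA1 and 18.2 in RIS+shHMGA1, while CLDN5 went from 0.0907 to 4.34 and PECAM1 from 0.183 to 0.727. Among mural markers MYOCD went from 13.6 to 0.547 CPM and RGS5 from 19.2 to 19.9. The part of these cell types in the results below was not tested. In bulk RNA, fewer cells of a type and less RNA per cell cannot be told apart.

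To compare the factors with one another, CPM was divided by the exonic length of the canonical transcript in kilobases, giving RPKM. In shHMGA1, TBX2 stood at 63.6 ± 4.46 RPKM (SD, n = 6) and FOXF1 at 55.9 ± 4.99, and their ranges overlapped. TBX3 followed at 18.6 ± 1.68 and PRRX1 at 17.8 ± 3.30, which also overlapped with each other and lay below FOXF1 in every library. TWIST2 stood at 8.38 ± 1.63, above TWIST1 at 5.78 ± 0.877, FOXF2 at 5.07 ± 0.570 and TBX5 at 4.17 ± 0.422, neighbours whose ranges overlapped in turn. In RIS+shHMGA1 the order of the leading pair was the other way round, with FOXF1 at 35.6 ± 7.64 RPKM and TBX2 at 27.9 ± 6.13 and with overlapping ranges. TBX5 was again the lowest of the 8 and stood apart, at 0.926 ± 0.228 RPKM with a highest library of 1.38 against a lowest FOXF2 library of 2.16.

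**Figure D1:**
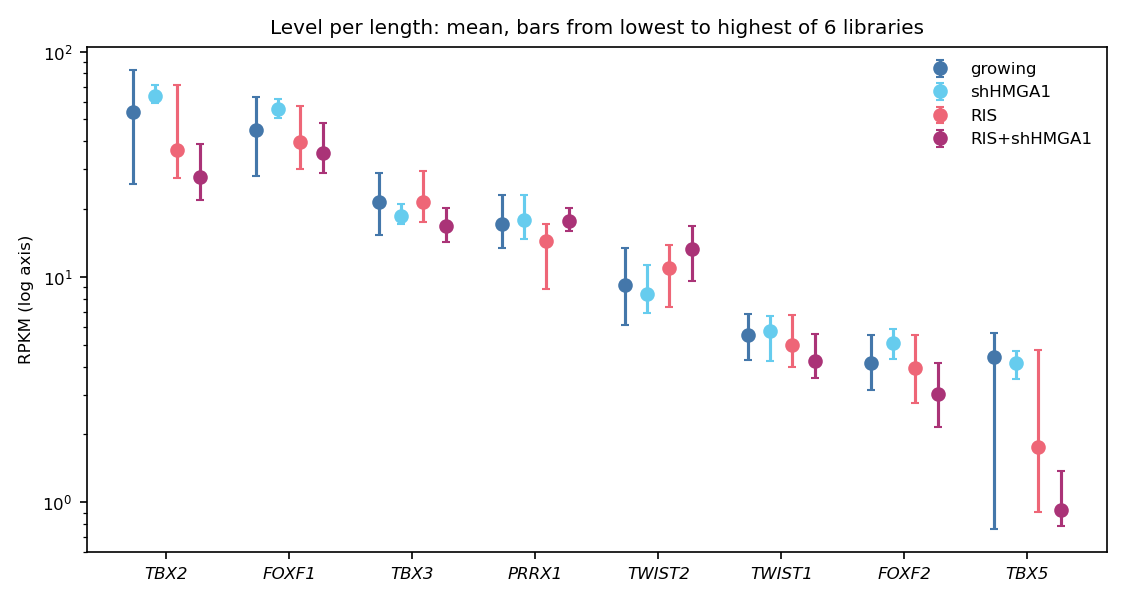
Level per exonic length of 8 factors (RPKM, logarithmic axis) in the 4 groups. Points are means and bars run from the lowest to the highest of 6 libraries. TBX2 and FOXF1 lead in every group, and TBX5 falls from 4.17 RPKM in shHMGA1 to 0.926 in RIS+shHMGA1.

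TBX4 and MEOX2 were not expressed at a measurable level. TBX4, a T-box factor regarded as a marker of lung mesenchyme, had 13 reads in all over the 24 libraries, at most 2 in any of them. MEOX2, a homeobox factor of mesoderm and vessel-associated cells, had 20 reads, at most 3 in any library. A count of 0 allows up to 3 reads, or 0.130 CPM in the deepest and 0.345 CPM in the shallowest library, a limit that covers counting error only. These limits use total counts without TMM, unlike the other CPM values. Both were removed by the low-count filter, no fold change is given for them, and the counts below refer to the other 8 factors. IMR90 cells here therefore had 8 of the 10 factors, lacking at this depth a T-box gene whose own neighbour, TBX2, lies 43.0 kb away on chromosome 17 and had the highest mean RPKM of all in the growing and shHMGA1 groups.

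Promoter sequences are shown for TBX5, FOXF2, TWIST2 and PRRX1. TBX5 fell strongly, and FOXF2 was called lower only in RIS+shHMGA1 against shHMGA1. TWIST2 was called higher only in comparisons that hold the RIS+shHMGA1 libraries, and PRRX1 did not pass in any comparison. The sequences are the 250 bases before a RefSeq start site in GRCh38.p14, written 5′ to 3′ on the strand of the gene. Capitals mark matches on either strand to the E-box CANNTG of bHLH factors, the T-box word GGTGTGA, the forkhead word TGTTTAC, the homeodomain word TAATTA or the TATA word TATAAA, which were found to share no bases in these windows. RefSeq windows were found for 6 of the 10 factors (FOXF2, TBX4, TBX5, TWIST2, PRRX1 and MEOX2).
TBX5, upstream start, chr12:114408443-114408692, minus strand: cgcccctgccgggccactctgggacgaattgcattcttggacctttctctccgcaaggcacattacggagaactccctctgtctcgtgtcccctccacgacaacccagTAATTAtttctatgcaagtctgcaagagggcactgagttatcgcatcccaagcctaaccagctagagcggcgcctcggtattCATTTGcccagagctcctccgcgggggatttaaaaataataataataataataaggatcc
FOXF2, chr6:1389326-1389575, plus strand: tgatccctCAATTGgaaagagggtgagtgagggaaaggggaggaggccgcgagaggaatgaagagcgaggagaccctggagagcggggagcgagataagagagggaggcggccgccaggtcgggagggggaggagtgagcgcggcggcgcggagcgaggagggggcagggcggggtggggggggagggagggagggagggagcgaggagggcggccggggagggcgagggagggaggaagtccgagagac
TWIST2, chr2:238847835-238848084, plus strand: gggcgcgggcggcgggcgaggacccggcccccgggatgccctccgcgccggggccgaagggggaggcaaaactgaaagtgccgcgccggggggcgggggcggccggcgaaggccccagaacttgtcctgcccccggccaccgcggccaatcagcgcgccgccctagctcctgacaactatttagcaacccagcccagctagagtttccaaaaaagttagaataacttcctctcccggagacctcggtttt
PRRX1, chr1:170663881-170664130, plus strand: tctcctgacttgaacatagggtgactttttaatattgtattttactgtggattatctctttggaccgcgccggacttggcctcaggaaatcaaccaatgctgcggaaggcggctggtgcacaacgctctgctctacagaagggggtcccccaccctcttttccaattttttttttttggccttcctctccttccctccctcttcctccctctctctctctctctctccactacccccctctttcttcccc
The TBX5 window shown had 1 E-box and 1 homeodomain word at a GC content of 51.2%, whereas the window of the other RefSeq start of TBX5 (chr12:114408013-114408262, 56.8% GC) held none of the words, and the FOXF2 window had 1 E-box at 70.8%. The TWIST2 window (68.4% GC) and the PRRX1 window (50.8% GC) held none of the words, which says only that these letters are not in these windows. Among 35116 RefSeq windows of the same length, 61.8% held an E-box, 2.8% the T-box word, 3.0% the forkhead word, 4.3% the homeodomain word and 10.7% the TATA word. The MEOX2 and TBX4 windows, of genes with almost no reads, each had 1 E-box, and MEOX2 also had 1 TATA word.

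To ask how the factors responded to RAS, hairpin cells with and without 4OHT were compared first. Genes were called at a false discovery rate below 0.01 and a log2 fold change beyond 0.58 in edgeR's quasi-likelihood test over 13356 genes. Of the 8 factors, 4 fell (TBX5, TBX2, FOXF2 and FOXF1) and 1 rose (TWIST2), while 39.1% of all tested genes were called, 19.5% as lower and 19.6% as higher. The median log2 fold change of the 8 was -0.55 against -0.02 for all tested genes. In the same 4 factors that fell, no RIS+shHMGA1 library reached the lowest shHMGA1 library, a separation found downwards in 22.5% of tested genes. In vector cells, by contrast, none of the 8 passed when all 12 libraries were used and 0% of tested genes were called, although 2 factors (TBX2 and TBX5) had an unadjusted p below 0.05, 4407 genes in all did so, and DESeq2 called 6.21% of genes, TBX5 among them. Without growing replicate 4 and RIS replicate 2, TBX2 and TBX5 fell, on a background of 20.5% of genes lower and 19.2% higher. TBX2, TBX5 and TWIST1 then had all RIS libraries below all growing libraries, as did 19.3% of tested genes. The plot of fold changes shows these 3 sets of estimates side by side.

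**Figure D2:**
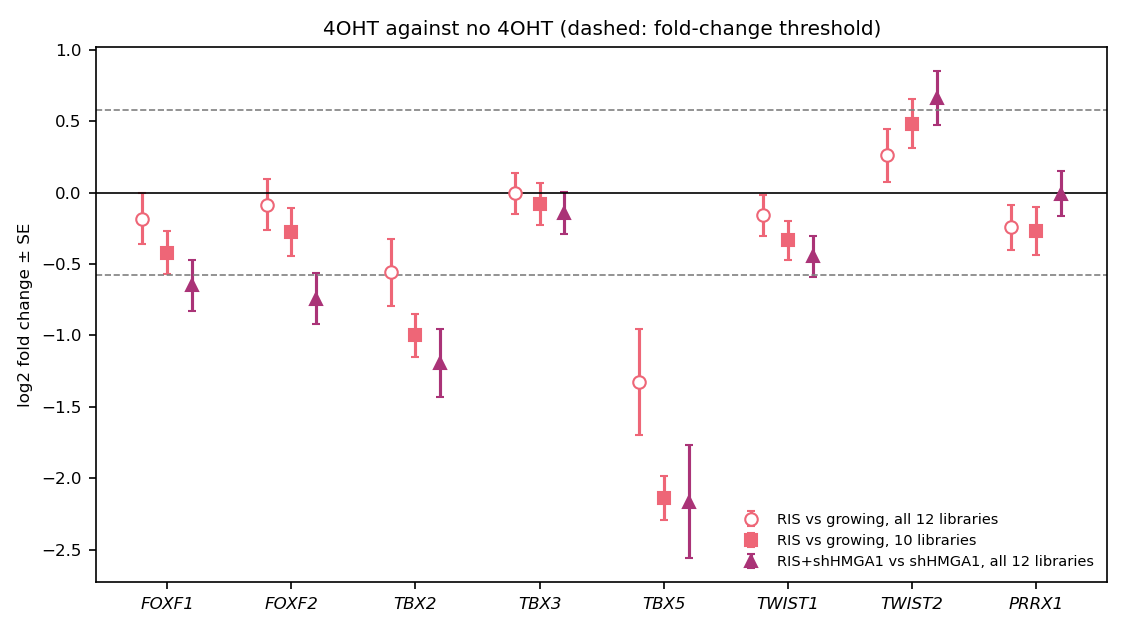
Log2 fold change with its standard error for 8 factors after 4OHT. Open circles are RIS against growing with all 12 libraries, squares the same without growing replicate 4 and RIS replicate 2, and triangles RIS+shHMGA1 against shHMGA1. Dashed lines mark 0.58 in either direction. TBX5 lies lowest in each set and TWIST2 is the only factor above 0 in all of them.

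TBX5 (chr12:114791716-114843949 in GRCh37, minus strand, 9 exons), a factor of heart, forelimb and lung bud mesenchyme, showed the deepest loss. Its CPM in growing was lowest at 2.83, with a median of 18.8 and a highest value of 21.1. In shHMGA1 the lowest, median and highest values were 13.2, 15.8 and 17.5 CPM, in RIS 3.38, 4.43 and 17.7, and in RIS+shHMGA1 2.92, 3.10 and 5.16. The lowest growing value was that of replicate 4 and the highest RIS value that of replicate 2, and without them growing spanned 15.8 to 21.1 CPM and RIS 3.38 to 5.93, with no overlap. TBX5 fell to 22.3% of its level in hairpin cells (log2 fold change -2.16, SE 0.39, adjusted p = 0.000283). In vector cells its log2 fold change was -1.33 (SE 0.37, adjusted p = 0.0256) with all libraries and -2.14 (SE 0.16, adjusted p = 3.25e-11) without the pair that lay apart, or 22.7% of growing. The counts behind the low groups were small, with 21 to 52 reads in each RIS+shHMGA1 library.

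TBX2 (chr17:59477204-59486827, plus strand, 7 exons), the repressor of CDKN2A, followed the same course from a much higher level. The lowest, median and highest CPM were 88.6, 187 and 285 in growing, 204, 216 and 244 in shHMGA1, 94.8, 98.7 and 243 in RIS and 75.4, 90.8 and 134 in RIS+shHMGA1. The same pair of libraries gave the lowest growing and the highest RIS value, and without them the groups were separate, at 156 to 285 CPM in growing and 94.8 to 124 in RIS. TBX2 fell by 1.19 on the log2 scale in hairpin cells (SE 0.24, adjusted p = 0.000468). In vector cells the log2 fold change was -0.56 (SE 0.24, adjusted p = 0.102) with all libraries and -1.0 (SE 0.15, adjusted p = 3.62e-06) without the pair. TBX2-AS1 overlaps TBX2 on the opposite strand and was not analysed here. Since the strand setting of the read counting was not given in the sources used here, a share of its reads within TBX2 cannot be told apart from TBX2.

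TBX3 (chr12:115108060-115121980, minus strand, 7 exons), the closest relative of TBX2, did not pass in any comparison. In growing it had 72.8, 103 and 137 CPM (lowest, median and highest), followed by 81.0, 85.5 and 99.3 in shHMGA1, 83.2, 92.4 and 140 in RIS and 67.6, 77.4 and 96.1 in RIS+shHMGA1, and all 4 groups overlapped. The log2 fold change was -0.14 (SE 0.15, adjusted p = 0.391) in hairpin cells. In vector cells it was -0.0068 (SE 0.15, adjusted p = 0.975) with all libraries and -0.08 (SE 0.14, adjusted p = 0.641) without the pair. In the pair of relatives, 4OHT thus went with a TBX2 change of -1.19 and a TBX3 change of -0.14 in the same hairpin libraries. TBX3 and TBX5 are neighbours 264.1 kb apart on chromosome 12 and TBX5 had the deepest fall of the set.

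**Figure D3:**
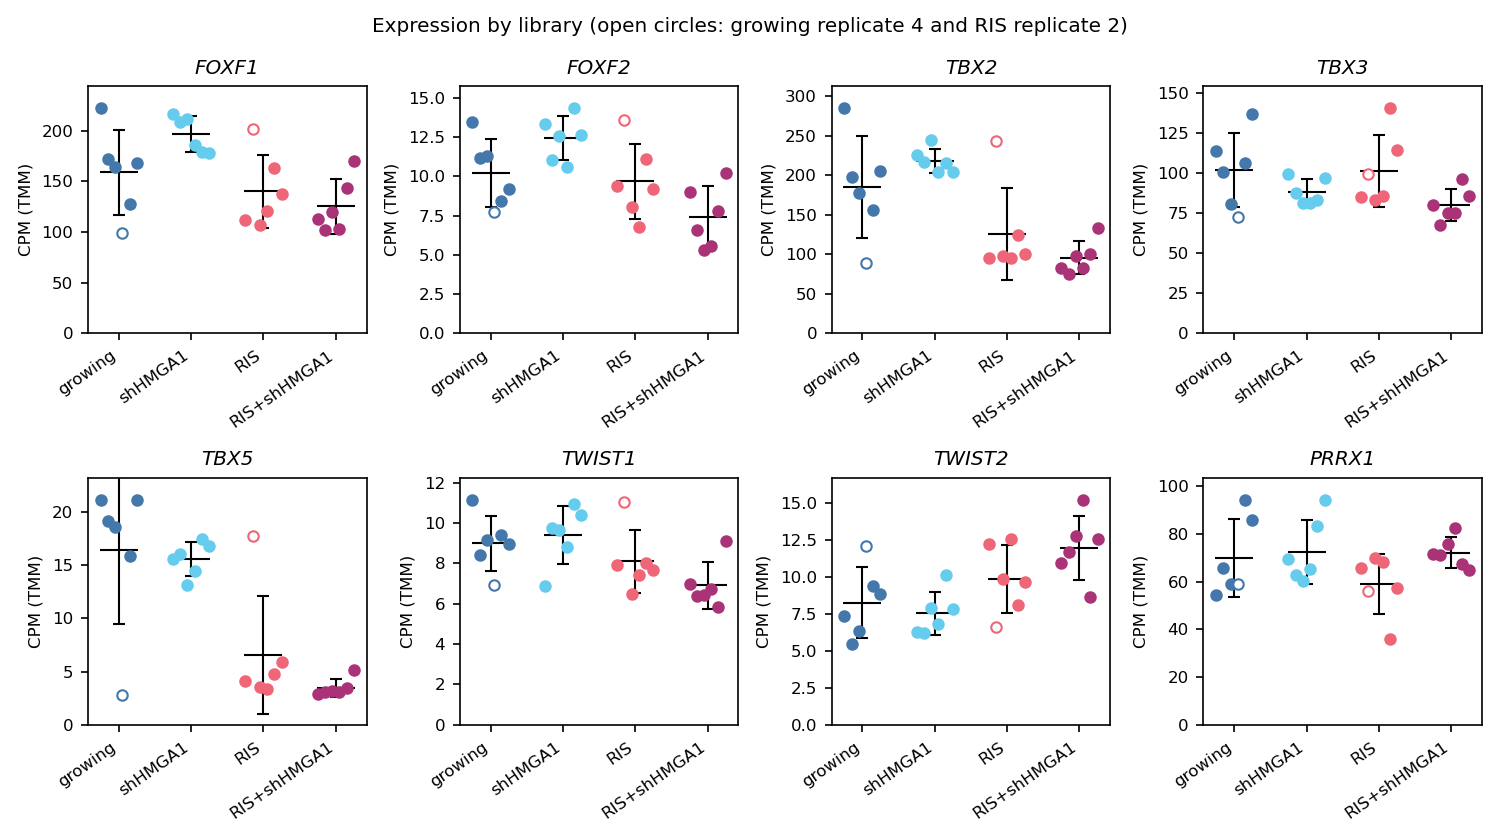
CPM, normalised by TMM, of 8 factors in each of 24 libraries by group on linear axes from 0. Filled circles are libraries, open circles are growing replicate 4 and RIS replicate 2, and horizontal marks with bars are the mean ± SD of 6. For TBX5 the open circle of growing lies at 2.83 CPM, below all other libraries, and that of RIS at 17.7 CPM, within the range of growing and just above that of shHMGA1. For TBX2 they lie at 88.6 CPM, below the other RIS libraries but within the range of RIS+shHMGA1, and at 243 CPM, while TBX3 and PRRX1 overlap in all 4 groups.

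FOXF1 (chr16:86544133-86549028, plus strand, 2 exons), the forkhead factor required for lung mesenchyme and vessels, fell in hairpin cells. Its lowest, median and highest CPM were 98.8, 166 and 222 in growing, 178, 197 and 217 in shHMGA1, 106, 129 and 201 in RIS and 102, 117 and 170.5 in RIS+shHMGA1. The hairpin groups were separate by a narrow margin, 170.5 against 178 CPM, and the vector groups overlapped with and without the pair that lay apart. Replicates 5 and 6 were the highest of RIS+shHMGA1, at 144 and 170.5 CPM against 102 to 120 in the others. They were the lowest of shHMGA1, at 179 and 178 CPM against 185 to 217. The log2 fold change was -0.65 (SE 0.18, adjusted p = 0.00383) in hairpin cells, close to the threshold of 0.58. In vector cells it was -0.18 (SE 0.18, adjusted p = 0.482) with all libraries and -0.42 (SE 0.15, adjusted p = 0.0183) without the pair. The call in hairpin cells was lost when replicate number 1, 2, 3 or 4 was left out of all groups, with log2 fold changes of -0.61, -0.58, -0.62 and -0.57.

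FOXF2 (chr6:1389811-1395838, plus strand, 2 exons), whose loss is known from defects of palate and gut mesenchyme, was the scarcer relative. CPM values, again lowest, median and highest, were 7.72, 10.2 and 13.5 in growing, 10.6, 12.6 and 14.3 in shHMGA1, 6.76, 9.30 and 13.6 in RIS and 5.30, 7.21 and 10.2 in RIS+shHMGA1. Only the hairpin groups were separate, again narrowly. FOXF2 fell by 0.74 on the log2 scale in hairpin cells (SE 0.18, adjusted p = 0.00163), a call lost without replicate number 3, where it was -0.66. In vector cells its log2 fold change was -0.08 (SE 0.18, adjusted p = 0.751) with all libraries and -0.28 (SE 0.17, adjusted p = 0.156) without the pair. The difference between hairpin and vector cells was itself -0.66 (SE 0.25, unadjusted p = 0.0149, adjusted p = 0.426), or -0.47 (SE 0.23, adjusted p = 0.993) without the pair.

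TWIST2 (chr2:239756726-239832230, plus strand, 2 exons), a bHLH repressor of dermal and other mesenchyme, was the factor that rose. Its lowest, median and highest CPM were 5.50, 8.13 and 12.1 in growing, 6.23, 7.35 and 10.1 in shHMGA1, 6.62, 9.77 and 12.5 in RIS and 8.63, 12.2 and 15.2 in RIS+shHMGA1. The highest growing value came from replicate 4 and the lowest RIS value from replicate 2. All groups overlapped, and without the pair growing reached 9.40 CPM while RIS began at 8.12. The log2 fold change was 0.66 (SE 0.19, adjusted p = 0.00501) in hairpin cells and 0.48 (SE 0.17, adjusted p = 0.0179) in vector cells without the pair, against 0.26 (SE 0.19, adjusted p = 0.341) with all libraries. The hairpin call was lost without replicate number 1, 2, 3 or 6, at log2 fold changes of 0.61 to 0.65.

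TWIST1 (chr7:19155091-19157259, minus strand, 2 exons), the craniofacial and limb mesenchyme factor and the better known relative, had values of the opposite sign. Its lowest, median and highest CPM were 6.94, 9.06 and 11.1 in growing, 6.89, 9.71 and 10.9 in shHMGA1, 6.50, 7.79 and 11.1 in RIS and 5.82, 6.58 and 9.13 in RIS+shHMGA1. The log2 fold change was -0.45 (SE 0.14, adjusted p = 0.0110) in hairpin cells. In vector cells it was -0.16 (SE 0.14, adjusted p = 0.444) with all libraries and -0.34 (SE 0.13, adjusted p = 0.0333) without the pair, so that it passed neither threshold in any of the 3. Without the pair, growing (8.44 to 11.1 CPM) and RIS (6.50 to 8.04) did not overlap. In the hairpin libraries TWIST1 and TWIST2 thus had log2 fold changes of -0.45 and 0.66.

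PRRX1 (chr1:170633272-170708562, plus strand, 4 exons), a homeobox factor of limb and craniofacial mesenchyme widely used as a fibroblast marker, did not pass in any comparison. Its lowest, median and highest CPM were 54.5, 62.4 and 94.0 in growing, 60.1, 67.2 and 94.1 in shHMGA1, 35.8, 61.5 and 70.0 in RIS and 64.7, 71.3 and 82.5 in RIS+shHMGA1, with overlap among all groups. Replicates 5 and 6 were the highest of shHMGA1, at 83.3 and 94.1 CPM against 60.1 to 69.2 in the others. They were the lowest of RIS+shHMGA1, at 67.4 and 64.7 CPM against 71.2 to 82.5. In growing they had 94.0 and 85.9 CPM against 54.5 to 65.6, and in RIS 35.8 and 57.2 against 56.2 to 70.0. The cause was not tested. The log2 fold change, which averages over this split, was -0.01 (SE 0.16, adjusted p = 0.972) in hairpin cells. In vector cells it was -0.24 (SE 0.16, adjusted p = 0.287) with all libraries and -0.27 (SE 0.17, adjusted p = 0.161) without the pair. Its relative PRRX2 fell in hairpin cells from 17.5 to 32.5 CPM down to 0.869 to 6.35 (log2 fold change -3.24, SE 0.61, adjusted p = 0.000331).

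**Figure D4:**
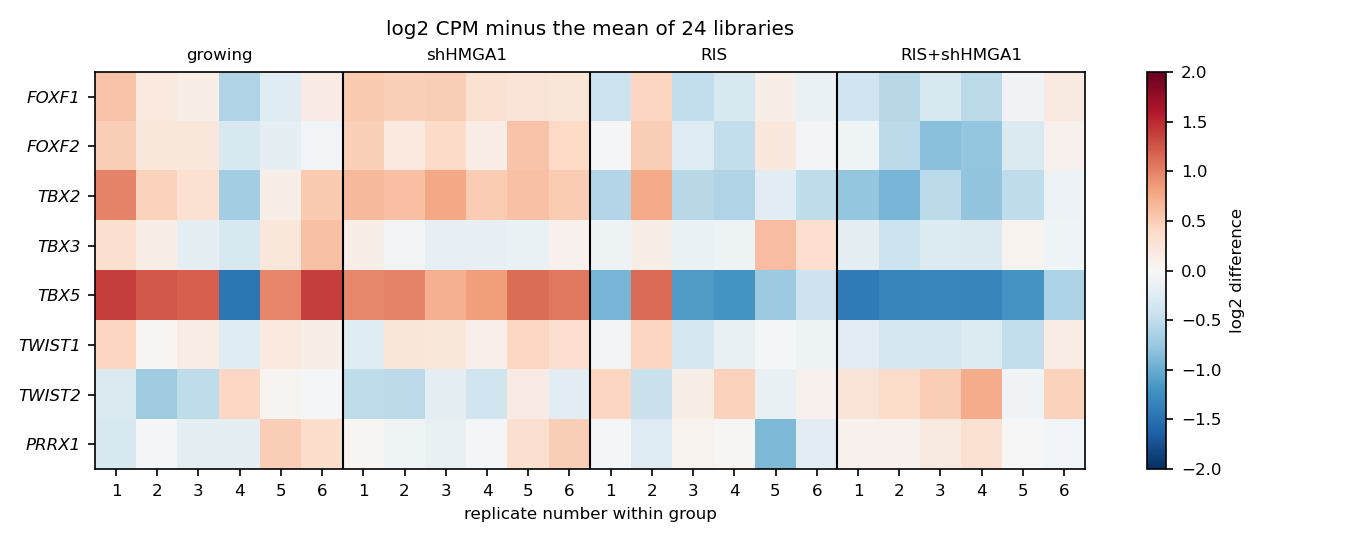
Log2 CPM of 8 factors in 24 libraries minus the mean of each factor over all libraries (red higher, blue lower, scale from -2 to 2). Columns are replicate numbers within each group. Growing replicate 4 is blue and RIS replicate 2 is red in the rows of FOXF1, FOXF2, TBX2, TBX5 and TWIST1, and the colours are the other way round for TWIST2.

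The study set each condition against growing cells, and in that comparison RIS+shHMGA1 had 2 of the 8 factors called, TBX2 and TBX5, both lower, beside 45.9% of all genes called and 23.9% lower. The log2 fold change was -2.25 for TBX5 (SE 0.39, adjusted p = 0.000194) and -0.95 for TBX2 (SE 0.24, adjusted p = 0.00165). Without the pair that lay apart TWIST2 was called as well, at 0.67 (SE 0.17, adjusted p = 0.000747), on a background of 28.5% lower and 28.3% higher. TBX2 and TBX5 were then the factors whose groups did not overlap, and 27.9% of all tested genes were lower without overlap. FOXF1, FOXF2, TBX3 and TWIST1 had log2 fold changes between -0.54 and -0.43 there with adjusted p from 0.00298 to 0.00696, short of the fold-change threshold. The contrasts with growing or with shHMGA1 share the RIS+shHMGA1 libraries, and this one mixes the hairpin with 4OHT.

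To examine the hairpin alone, shHMGA1 was compared with growing cells. No factor passed, none had an unadjusted p below 0.05 in edgeR and DESeq2 called none. Of all genes, edgeR called 0.27% and DESeq2 0.74%. Log2 fold changes ran from -0.21 for TBX3 (SE 0.15) to 0.31 for FOXF1 (SE 0.18). Without the pair that lay apart, 2.59% of genes and no factor were called and 2 factors had an unadjusted p below 0.05. The 5 growing and 6 shHMGA1 libraries then gave -0.30 for TBX5 (SE 0.13, adjusted p = 0.10) and -0.29 for TBX3 (SE 0.14, adjusted p = 0.125). With 4OHT, RIS+shHMGA1 against RIS, again none of the 8 passed and DESeq2 called none. Of all genes, edgeR called 2.55%, or 12.5% without the pair that lay apart, and DESeq2 called 11.8% with all libraries. An unadjusted p below 0.05 was found for 3 of the 8 (FOXF2, TBX3 and TBX5) and for 6647 of the 13356 genes. TBX5 had the largest difference there, -0.92 (SE 0.40, adjusted p = 0.0680), which was -0.32 (SE 0.17, adjusted p = 0.127) without the pair. TBX3 then had -0.35 (SE 0.14, adjusted p = 0.0480), short of both thresholds.

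Whether 4OHT acted differently in hairpin and vector cells was tested as an interaction. No factor and 0% of genes passed in edgeR, where 1371 genes, FOXF2 alone among the factors, had an unadjusted p below 0.05. DESeq2 called 5 genes and no factor. The differences for TBX5 and TBX2 were -0.84 (SE 0.53) and -0.63 (SE 0.33) with all libraries and -0.02 (SE 0.21) and -0.19 (SE 0.20) without the pair that lay apart. A p that misses the threshold does not show that the responses were the same.

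The genes that work beside these factors were examined as lists, with hairpin cells as the reference comparison, where 19.5% of all genes were lower and 19.6% higher. Vector cells without the pair that lay apart, where 20.5% were lower and 19.2% higher, are given next to it. With all 12 vector libraries no gene of any of these lists was called, as for all genes. The lists, like the members, were chosen with earlier results of these data known, so their counts are a description. Of 7 bHLH partners and ID inhibitors, the E proteins with which TWIST factors dimerise and the ID proteins that sequester them, 6 fell in hairpin cells and all 7 in vector cells without the pair. ID3 fell from 166 to 257 CPM in shHMGA1 to 19.0 to 58.2 in RIS+shHMGA1 (log2 fold change -2.82, SE 0.46), ID2 by 2.36 on the log2 scale (SE 0.48), the E protein gene TCF4 by 1.89 (SE 0.33) and ID1 by 1.36 (SE 0.37). The median over this list was -1.89, against -0.02 for all genes. Of 4 factors of epithelial-mesenchymal transition, SNAI1 fell in both (log2 fold change -0.87, SE 0.22 in hairpin cells) and ZEB2 rose in vector cells without the pair (0.64, SE 0.12).

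Among 27 other mesenchymal transcription factors, 20 were tested, of which 16 fell and 1 rose in hairpin cells (19.5% and 19.6% of all genes) and 15 fell and 1 rose in vector cells without the pair (20.5% and 19.2%), against 0 with all vector libraries. OSR2 (-2.49, SE 0.74), TCF21 (-2.25, SE 0.48) and OSR1 (-2.15, SE 0.37) were among the largest changes in hairpin cells. TCF21, a factor of lung and kidney mesenchyme, went from 24.4 to 39.9 CPM in shHMGA1 to 5.80 to 8.33 in RIS+shHMGA1, and like TBX5 it was at its opposite level in growing replicate 4 (4.76 CPM) and RIS replicate 2 (34.4 CPM). The median of this list was -1.28, a larger fall than the -0.55 of the 8 factors. Of 11 relatives of the factors 5 were tested, with PRRX2, FOXC2 and FOXL1 lower and FOXQ1, a forkhead gene of epithelia, higher. FOXQ1 went from 2.66 to 4.39 CPM in shHMGA1 to 29.1 to 44.4 in RIS+shHMGA1 (log2 fold change 3.43, SE 0.69).

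Most of the measured signals that pattern lung mesenchyme were lower after 4OHT. Of 6 tested from a list of 11, 5 fell in hairpin cells, and in vector cells all 7 tested fell without the pair and none with all libraries. The Hedgehog ligand SHH, below the filter, had a mean of 0.0443 CPM in shHMGA1 and 0.470 in RIS+shHMGA1. These means rest on 3 and 28 reads over all libraries of each group, and no fold change is given. PTCH1, the Hedgehog receptor and target, fell by 2.72 on the log2 scale (SE 0.50) and BMP4 by 2.71 (SE 0.54) in hairpin cells. WNT2 was at 0.431 to 1.35 CPM in shHMGA1 and at most 0.0992 in RIS+shHMGA1, and HHIP at 1.74 to 2.83 and at most 0.201. Of the 3 cell cycle inhibitors that T-box or TWIST factors are known to repress, 2 rose in hairpin cells and all 3 in vector cells without the pair. CDKN2A went from 5.06 to 9.72 CPM in shHMGA1 to 15.1 to 26.9 in RIS+shHMGA1 (log2 fold change 1.72, SE 0.35), and CDKN1A rose by 0.90 (SE 0.26). CDKN2B had a log2 fold change of 0.59 in hairpin cells (SE 0.25, adjusted p = 0.0408) and 1.35 in vector cells without the pair (SE 0.22).

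Neighbours of the factors in the genome were compared by position. FENDRR, a long non-coding RNA transcribed away from FOXF1 from a start 1.5 kb off (chr16:86508145-86542655, minus strand), fell from 187 to 252 CPM in shHMGA1 to 104 to 123 in RIS+shHMGA1 (log2 fold change -1.01, SE 0.22, adjusted p = 0.000747). In vector cells without the pair it fell by 0.80 on the log2 scale (SE 0.15), where FOXF1 had -0.42. TBX5-AS1 (chr12:114845939-114850637, plus strand), which lies at the 5′ end of TBX5, fell from 21.9 to 29.2 CPM to 10.8 to 13.9 (log2 fold change -0.98, SE 0.19, adjusted p = 0.000345), a smaller change than the -2.16 of TBX5. Overlap of TBX5-AS1 with TBX5 transcripts from other starts was not examined. With the strand setting not given, any shared reads cannot be told apart. FOXL1, a forkhead gene near FOXF1 but not the closest, fell by 1.43 (SE 0.29), whereas HDAC9, the neighbour of TWIST1, rose by 1.66 (SE 0.35). HDAC4 near TWIST2 fell by 1.1 (SE 0.26) and MED13L near TBX3 had a log2 fold change of -0.997 (SE 0.28), so that TWIST2 and its neighbour had opposite signs. Of the 13 neighbours tested, 6 fell and 3 rose in hairpin cells, beside 19.5% and 19.6% of all genes, and 7 fell and 2 rose in vector cells without the pair. None passed there with all libraries.

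**Figure D5:**
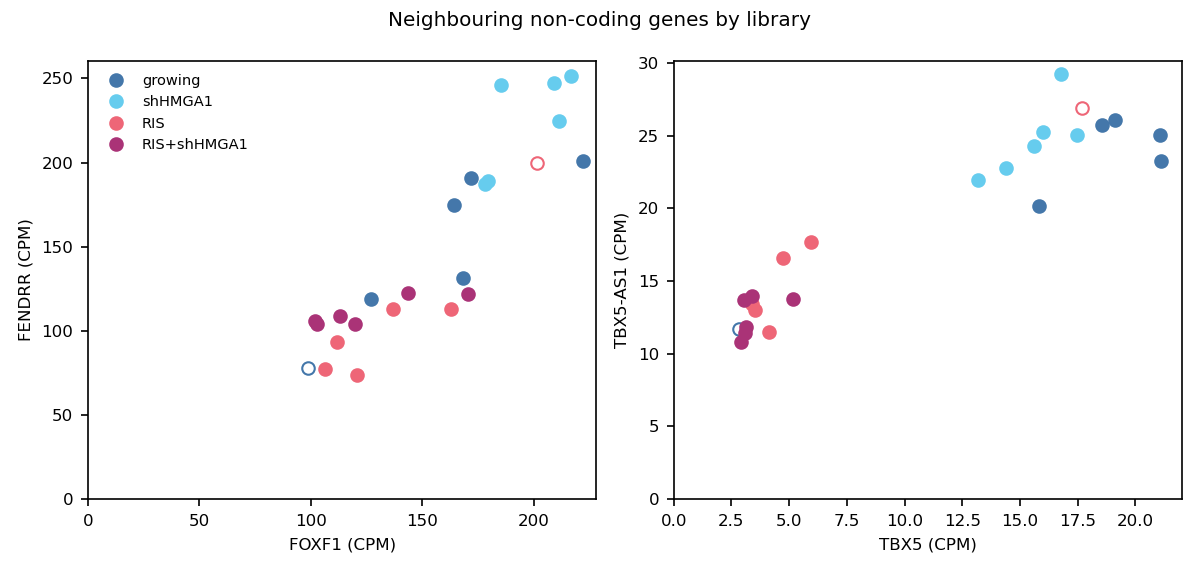
FOXF1 against FENDRR (left) and TBX5 against TBX5-AS1 (right) in CPM, 1 point per library and colours by group, with open circles for growing replicate 4 and RIS replicate 2. TBX5 libraries form a cluster below 6 CPM and another above 13 CPM, and TBX5-AS1 is lower in the first of these (at most 17.7 CPM) than in the second (at least 20.2 CPM).

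The patterns of the factors across the 24 libraries were described by Pearson's r of log2 CPM, without a test, since the libraries share groups and the 4OHT state dominates them. TBX5 ran with TBX2 at r = 0.948, TBX2 with FOXF1 at 0.931 and FOXF1 with FOXF2 at 0.840, while TWIST2 ran against TBX5 at -0.782. TBX3 had at most 0.450 with any other factor and PRRX1 at most 0.276. Among all tested genes, those most like TBX5 were TMEM109 (0.993) and GAS6 (0.992), those most like TBX2 were PITX1 (0.977) and C1QTNF1 (0.975), and for FOXF1 they were IRF2BPL (0.933) and TBX2. FOXF2 was most like AARSD1 (0.890) and ADGRE5 (0.880), TBX3 among others like LRP8 (0.932), TWIST1 like SPSB3 (0.896), TWIST2 like STRADB (0.924) and PRRX1 like MAT2A (0.872) and GLUL (0.814). The other gene most like TWIST1 and that most like TWIST2 had identifiers without a symbol.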

How the data were processed

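RNA-seq reads of 24 libraries (TruSeq Stranded mRNA, HiSeq-2500) had been mapped by the authors to hg19 with STAR 2.5.0b, cleared of adapters and of reads with a mapping quality below 20 (Cutadapt 1.10.0) and counted per Entrez gene with Rsubread, whose version and strand setting were not given in the sources used here. The deposited files hold raw counts, 8698070 to 23103424 per library. Genes passing edgeR's filterByExpr (13356) were normalised by TMM and tested with edgeR 4.0.16 (quasi-likelihood F test, Benjamini-Hochberg adjustment over all tested genes, 4 group means fitted to all libraries), with DESeq2 1.42.0 as an alternative. Calls needed a false discovery rate below 0.01 and an absolute log2 fold change above 0.58, as in the study's methods. Standard errors were derived from the F statistic. The fit was tested on simulated data for RIS+shHMGA1 against shHMGA1 only. The simulation had the same dispersion for every gene and no library of the opposite 4OHT state. It therefore cannot decide how the fit behaves for RIS against growing. CPM is scaled by TMM, log2 CPM used a prior count of 2, and RPKM used canonical exonic lengths from GENCODE on GRCh37. Symbols came from RefSeq identifiers (23696 of 25702 matched). Members, gene lists and the pair of libraries left out were chosen with earlier results of these data known. Named genes were all members, HMGA1, list genes past the thresholds (at most 4 per list with the largest changes), the relatives and neighbours described, and the 2 genes most like each member. Some genes that this rule names are not reported here. ZEB2, TCF21's values in single libraries, CDKN2B, FENDRR, TBX5-AS1, FOXL1 and MED13L were described after their values were seen. Coordinates are GRCh37 except promoters (GRCh38.p14). TMM and the canonical lengths affect levels between libraries and between genes.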

Additional observations from a re-analysis of the deposited data

Results flagged for a closer look

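Of 36 sets of 6 libraries examined for a value far from the rest (8 factors and HMGA1 in 4 groups), 6 had one, where chance flags about 1 in 20 or 1.8. The gap to the nearest library, as a share of the range of the group, was 0.804 for TBX2 and 0.822 for TBX5 in RIS replicate 2, which was high, and 0.663 for TWIST1 in the same library, also high. It was 0.712 for TBX5 in growing replicate 4, which was low. For RIS+shHMGA1 replicate 6 it was 0.781 for TBX5 (5.16 CPM against 2.92 to 3.41 in the others) and 0.649 for TWIST1 (9.13 CPM), both high. No factor had a difference between hairpin and vector cells past the thresholds.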

How the results depend on the processing

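For RIS against growing the number of factors past the thresholds was 0 with all libraries, 1 with DESeq2 and 1 at a false discovery rate below 0.05 (TBX5 in both), and 2 (TBX2 and TBX5) without growing replicate 4 and RIS replicate 2, without either of them alone, and without both with the replicate block. Of all tested genes, 0% were called with all libraries, 6.21% with DESeq2 and 11.5% at a false discovery rate below 0.05. The share was 39.7% without both libraries and 39.1% without both with the block. It was 25.4% without growing replicate 4 alone and 19.2% without RIS replicate 2 alone. Leaving out replicate numbers in turn gave 0 to 2 factors in RIS against growing, where 0% to 15.6% of all genes were called. It gave 2 to 5 for RIS+shHMGA1 against shHMGA1 (5 with all, 3 without number 1 or 2, and 2, TBX2 and TBX5, without number 3). The share of all genes called there fell too, from 39.1% with all to 23.8%, 33.0% and 22.7% without numbers 1, 2 and 3. For RIS+shHMGA1 against growing it gave 1 to 3 factors (2 with all, 1 without number 1), beside 45.9% of all genes with all and 22.9% without number 1. The other comparisons had 0 factors. The replicate numbers were checked for pairing. Same-numbered libraries correlated above 0.1 in 3 to 5 of 6 pairs by comparison, not in all. By comparison 2 to 8 of 12 libraries correlated best with their own number. In each comparison the mean correlation was higher for the same number than for others. The check kept growing replicate 4 and RIS replicate 2, so it cannot decide whether the numbers are pairs. The main fit did not use the numbers. A shared source is not excluded: in shHMGA1 against growing the mean correlation was 0.326 for the same number and -0.0593 for others. With the replicate block the counts of factors stayed at 0, 5, 2, 0, 0 and 0. The share of all genes called in RIS+shHMGA1 against RIS went from 2.55% to 12.3% with the block.
Of the log2 fold changes, 27 changed sign, each in a comparison where the factor did not pass. TBX3 in RIS against growing became 0.0070 with RLE size factors, 0.0066 with DESeq2 and 0.0024 with only the samples of the contrast. PRRX1 in RIS+shHMGA1 against shHMGA1 became 0.024 with RLE, 0.023 with DESeq2, 0.0049 with the replicate block and 0.00071 with the block and the pair left out. In shHMGA1 against growing, TBX5 became 0.021 with the block, TWIST1 -0.0050 without the pair, -0.0031 without growing replicate 4 and -0.0017 with the block and without the pair, TWIST2 0.020 and 0.017 without the pair and without growing replicate 4, and PRRX1 -6e-05 with the block and without the pair. Leaving out replicate numbers in turn gave ranges across 0 for FOXF1 (-0.29 to 0.00044), FOXF2 (-0.18 to 0.029) and TBX3 (-0.11 to 0.079) in RIS against growing, PRRX1 in RIS+shHMGA1 against shHMGA1 (-0.069 to 0.11) and against growing (-0.011 to 0.17), TBX5 (-0.30 to 0.011), TWIST1 (-0.0060 to 0.22) and TWIST2 (-0.20 to 0.022) in shHMGA1 against growing, and FOXF1 in RIS+shHMGA1 against RIS (-0.27 to 0.026). Leaving out both libraries gave -0.42 and -0.28 for FOXF1 and FOXF2 in RIS against growing. The cause was not tested. The other values kept their direction, 753 on the same side of the thresholds, 18 newly past them and 10 no longer past them.
Depth limits TBX4 and MEOX2, which cannot be compared, and TBX5, FOXF2, TWIST1 and TWIST2, each below 25 CPM in every library.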
